A study of Mus musculus with 12 samples.

Results

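Hspa5, Xbp1, Atf4, Ddit3, Herpud1, Dnajb9, Sdf2l1, Creld2, Manf and Calr are 10 genes of the endoplasmic reticulum (ER) stress response, and their transcripts were measured by RNA-seq in the ileal and colonic mucosa of control and Slc39a8-IEC KO mice. They were chosen by name, as the genes whose Ensembl identifiers map to these symbols in GENCODE M21, and they are 10 of the 53715 genes in the table. The table has 11 identifiers for the 10 symbols. The additional identifier of Ddit3 is a locus of 105 exonic bases that overlaps the main gene and had 0 counts in every library, so Ddit3 below is the main gene alone. All 10 genes passed the filter on low counts, as 16558 genes did.

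Slc39a8 encodes a manganese transporter of the plasma membrane. The study compared mice in which it was deleted in the intestinal epithelium with controls, in 4 groups of 3 libraries that cross tissue with genotype. All mice were of the C57BL/6J strain, male and 8 weeks old. Control mice carried the floxed Slc39a8 allele on both chromosomes (Slc39a8-fl/fl) per the labels, whereas the study's methods describe controls as floxed, wild-type or Villin-Cre mice. Slc39a8-IEC KO mice were Slc39a8-fl/fl and also carried Villin-Cre, so that Cre recombinase is made in the epithelium and not in other cells of the mucosa. RNA came from whole mucosa, so transcripts of epithelial, immune and stromal cells are counted together, and fewer cells of a type cannot be told apart from less RNA per cell. Whether the ileal and colonic library of the same number came from the same mouse is not given in the labels.

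The ER is where secreted and membrane proteins are folded. When unfolded proteins accumulate there, the sensors PERK, IRE1 and ATF6 start the unfolded protein response (UPR), in which PERK favours translation of ATF4, IRE1 splices the Xbp1 transcript into an active form, and ATF6 is cut to release a transcription factor. These factors raise chaperones, enzymes of disulfide bond formation and the machinery that returns misfolded proteins to the cytosol, and prolonged stress induces CHOP, the product of Ddit3. In the intestine the pathway is best known from cells with a heavy secretory load, such as goblet cells, Paneth cells and plasma cells. The libraries measure transcript levels, so cleavage of ATF6, splicing of Xbp1 and translation of Atf4 were not measured.

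Library totals ranged from 16749138 to 27903083 expected counts. Levels are given as CPM, the count divided by the TMM-scaled library size and expressed per 1e6 counts. The lowest count of any of the 10 genes in any library was 220, for Creld2. The targeted gene Slc39a8 was measured in ileum at 5.22 to 8.39 CPM in controls and 2.62 to 4.35 CPM in KO mice. In colon it was measured at 20.05 to 20.84 CPM in controls and 7.35 to 11.5 CPM in KO mice, so the genotypes did not overlap in either tissue. Over both tissues the log2 fold change of Slc39a8 was -1.13 (SE 0.17), with p = 0.005 in a two-sided exact permutation test within tissue, the smallest that 400 arrangements allow, and an adjusted p of 0.382 by edgeR. Tissue labels were checked with 5 markers of ileal enterocytes, which summed to 15220 to 21480 CPM in ileum and 760 to 1140 CPM in colon. The 4 markers of colonic epithelium summed to 15290 to 27670 CPM in colon and 146 to 350 CPM in ileum, except in ileal KO replicate 2, where they summed to 2965 CPM. Ileal control replicate 3 and ileal KO replicate 1 stood apart. Their 3 smooth muscle markers summed to 20.0 and 11.2 CPM, against 1147 to 1563 CPM in the other ileal libraries, so the counts of the 10 genes, the pathway genes, the genes with the promoter element and the cell type markers are also given without these 2 libraries.

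Tissue separated most of the 10 genes. In control mice 7 of them (Hspa5, Xbp1, Atf4, Sdf2l1, Creld2, Manf and Calr) were lower in colon than in ileum and 0 were higher. In KO mice the same genes except Xbp1, 6 in number, were lower in colon and 0 were higher. The comparison called 35.9% of all genes in control mice and 37.1% in KO mice, of which lower in colon were 19.6% and 20.0% of all genes (edgeR quasi-likelihood test, Benjamini-Hochberg adjusted p under 0.1). The median log2 fold change of the 10 genes, colon over ileum, was -1.06 in control and -0.92 in KO mice, beside 0.016 and 0.014 over all genes tested. Without the 2 ileal libraries with few muscle transcripts, 7 genes were lower in each genotype and 0 were higher. The control and KO contrasts use different libraries, but both come from 1 fit with a shared estimate of the spread.

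**Figure D1:**
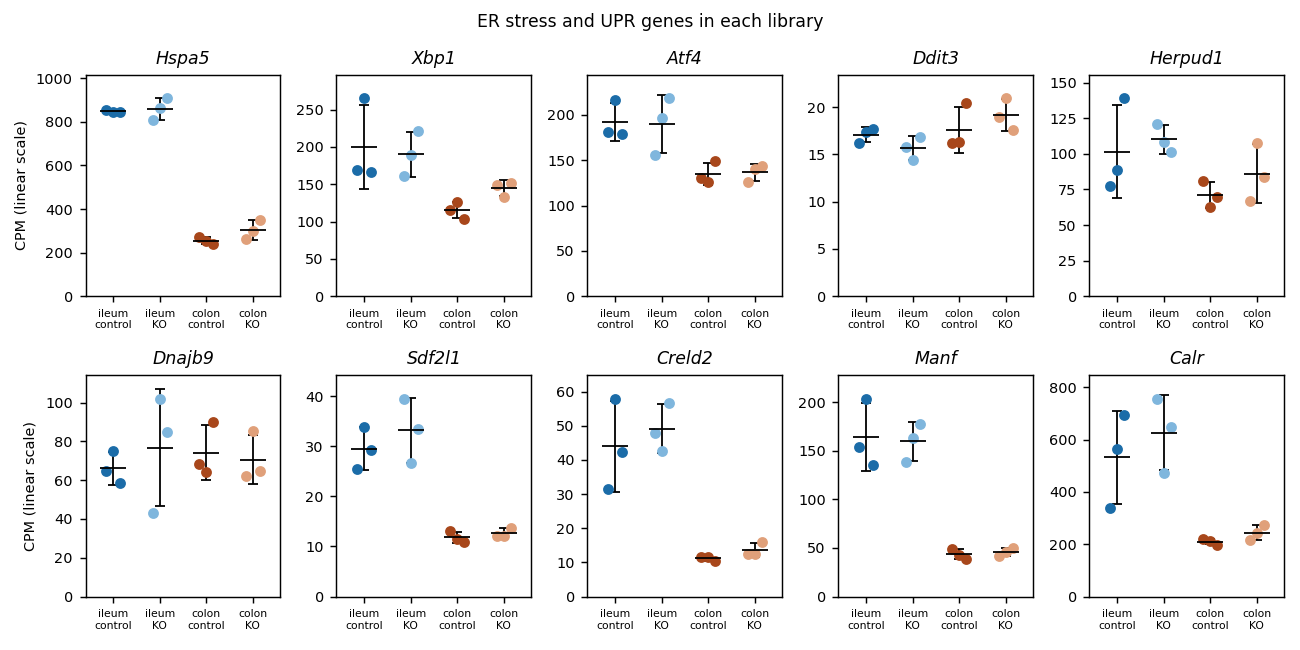
Level of each of the 10 genes in every library, in CPM on a linear axis from 0, for ileal control, ileal KO, colonic control and colonic KO mice. Points are the 3 libraries of a group and bars are the mean ± SD. Hspa5, Xbp1, Atf4, Sdf2l1, Creld2, Manf and Calr sit lower in all 6 colonic than in all 6 ileal libraries, while Ddit3 and Dnajb9 show no such gap.

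The chaperones are described first, with positions from GENCODE M21 on GRCm38. Hspa5 (ENSMUSG00000026864.13, chr2:34771970-34777547, plus strand) encodes BiP, the HSP70 chaperone of the ER lumen that binds unfolded chains and holds the sensors inactive. In ileum Hspa5 was at 856, 845 and 845 CPM in control and 807, 863 and 908 CPM in KO libraries. In colon it was at 274, 254 and 239 CPM in control and 261, 298 and 350 CPM in KO libraries. Every ileal library was above every colonic library, and the ileal control libraries were closer to each other (SD 6.45 CPM) than those of any other group (SD 17.5 to 50.6 CPM). The log2 fold change, colon over ileum, was -1.73 (SE 0.14, adjusted p = 4.68e-06 by edgeR) in control and -1.51 (SE 0.14, adjusted p = 1.38e-05) in KO mice, which corresponds to 0.301 and 0.352 of the ileal level.

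Sdf2l1 (ENSMUSG00000022769.8, chr16:17130138-17132383, minus strand) encodes a partner of BiP that binds ER J-domain proteins. Dnajb9 (ENSMUSG00000014905.4, chr12:44205559-44210326, minus strand) encodes such a J-domain protein, ERdj4. Sdf2l1 was at 25.4, 33.9 and 29.4 CPM in ileal libraries of control mice and 39.5, 26.7 and 33.5 CPM in those of KO mice. In colon it was at 13.1, 11.5 and 10.8 CPM in control and 12.1, 12.1 and 13.7 CPM in KO libraries. The tissues did not overlap, and the log2 fold change was -1.33 (SE 0.17, adjusted p = 0.000158 by edgeR) in control and -1.39 (SE 0.17, adjusted p = 0.00011) in KO mice. Dnajb9 did not share this pattern. It was at 64.8, 75.2 and 58.4 CPM in control ileum, 43.3, 102 and 84.7 CPM in KO ileum, 68.5, 64.1 and 90.2 CPM in colonic control and 62.1, 85.3 and 64.7 CPM in colonic KO libraries. All 4 groups of Dnajb9 overlapped, with log2 fold changes of 0.17 (95% interval -0.42 to 0.75) in control and -0.12 (95% interval -0.71 to 0.47) in KO mice. These intervals exclude a change of the size seen for Hspa5 or Sdf2l1. Of the 75-base windows in Dnajb9 transcripts, 2.55% also occur in Gm6568, so a small part of its reads could be divided between the 2 loci.

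Manf (ENSMUSG00000032575.16, chr9:106838312-106891979, minus strand) encodes a secreted and ER-resident factor that binds BiP. It was at 154, 204 and 135 CPM in ileal libraries of control mice and 138, 163 and 177 CPM in those of KO mice. In colon it was at 49.2, 42.5 and 38.8 CPM in control and 41.3, 46.1 and 49.5 CPM in KO libraries. The lowest ileal library was thus above the highest colonic library in both genotypes, and the log2 fold change was -1.92 (SE 0.17, adjusted p = 1.03e-05 by edgeR) in control and -1.81 (SE 0.17, adjusted p = 1.63e-05) in KO mice.

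Calr (ENSMUSG00000003814.8, chr8:84841850-84846934, minus strand) encodes calreticulin, the soluble lectin chaperone that retains glycoproteins until they are folded and stores calcium in the ER. It was at 339, 562 and 694 CPM in ileal libraries of control mice and 757, 474 and 649 CPM in those of KO mice. In colon the values lay closer together, at 220, 211 and 199 CPM in control and 218, 243 and 274 CPM in KO libraries. The tissues did not overlap, with a log2 fold change of -1.34 (SE 0.25, adjusted p = 0.00188 by edgeR) in control and -1.36 (SE 0.25, adjusted p = 0.00174) in KO mice. Creld2 (ENSMUSG00000023272.4, chr15:88819646-88826683, plus strand) encodes a secreted ER protein with a disulfide isomerase-like motif. It was at 31.6, 58.0 and 42.4 CPM in ileal libraries of control mice and 47.9, 42.6 and 56.8 CPM in those of KO mice. Creld2 was at 11.5, 11.7 and 10.4 CPM in colonic control and 12.6, 12.5 and 15.9 CPM in colonic KO libraries. The tissues did not overlap for Creld2 either, with log2 fold changes of -1.98 (SE 0.21, adjusted p = 4.17e-05 by edgeR) in control and -1.85 (SE 0.21, adjusted p = 6.86e-05) in KO mice. The values of Creld2 and Manf differed by less than their SE, and without the 2 ileal libraries with few muscle transcripts they were -2.02 and -2.06 in control mice and -1.85 and -1.89 in KO mice.

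Herpud1 (ENSMUSG00000031770.16, chr8:94386438-94395377, plus strand) encodes a membrane protein of the ER-associated degradation complex. It was at 77.4, 88.5 and 139 CPM in ileal libraries of control mice and 121, 108 and 101 CPM in those of KO mice, against 81.0, 62.6 and 69.5 CPM in colonic control and 67.0, 108 and 83.4 CPM in colonic KO libraries. The tissues overlapped in each genotype, and Herpud1 did not pass the threshold, with log2 fold changes of -0.52 (SE 0.23, adjusted p = 0.111 by edgeR) in control and -0.35 (SE 0.23, adjusted p = 0.267) in KO mice. Without ileal control replicate 1, the lowest ileal library, the control contrast of Herpud1 was -0.68 and passed (adjusted p = 0.0481 by edgeR). It moved the other way without the 2 ileal libraries with few muscle transcripts, to -0.24 (SE 0.19, adjusted p = 0.344 by edgeR). The value in KO mice was then -0.275 (adjusted p = 0.27 by edgeR).

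The 3 transcription factors had log2 fold changes, colon over ileum, between -0.79 and 0.29. Xbp1 (ENSMUSG00000020484.18, chr11:5520659-5525893, plus strand) encodes the factor that IRE1 activates. It was at 169, 265 and 166 CPM in ileal libraries of control mice and 161, 189 and 221 CPM in those of KO mice. In colon it was at 116, 126 and 104 CPM in control and 149, 133 and 152 CPM in KO libraries. Ileal and colonic libraries did not overlap in either genotype, with a log2 fold change of -0.79 (SE 0.19, adjusted p = 0.00932 by edgeR) in control and -0.39 (SE 0.19, adjusted p = 0.143) in KO mice. The 2 effects were not shown to differ, since the test of the difference itself gave 0.40 on the log2 scale (SE 0.27, adjusted p = 1, edgeR). In KO mice Xbp1 passed the threshold without ileal KO replicate 1 (-0.51, adjusted p = 0.0949 by edgeR) and without ileal control replicate 2 (-0.40, adjusted p = 0.0525), which is not itself in that contrast. It also passed without the 2 ileal libraries with few muscle transcripts (-0.49, adjusted p = 0.0522).

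Atf4 (ENSMUSG00000042406.8, chr15:80255184-80257541, plus strand) encodes the factor translated when PERK phosphorylates its target eIF2-alpha. It was at 181, 217 and 179 CPM in ileal libraries of control mice and 155, 197 and 218 CPM in those of KO mice. Atf4 was at 130, 126 and 149 CPM in colonic control and 126, 140 and 144 CPM in colonic KO libraries. The tissues did not overlap, and the log2 fold change was -0.51 (SE 0.15, adjusted p = 0.0228 by edgeR) in control and -0.48 (SE 0.15, adjusted p = 0.031) in KO mice. Without ileal KO replicate 3, which had the highest Atf4, the value in KO mice was -0.37 and did not pass (adjusted p = 0.123 by edgeR). With library size as the only scaling, Atf4 passed in neither genotype (-0.28, adjusted p = 0.166 by edgeR, and -0.19, adjusted p = 0.333). Ddit3 (ENSMUSG00000025408.15, chr10:127290774-127296288, plus strand) encodes CHOP. It was at 16.2, 17.4 and 17.7 CPM in control ileum, 15.7, 14.4 and 16.9 CPM in KO ileum, 16.2, 16.3 and 20.4 CPM in colonic control and 18.9, 20.9 and 17.6 CPM in colonic KO libraries. The 3 colonic KO libraries were above the 3 ileal KO libraries, and the control tissues overlapped. The log2 fold change of Ddit3 was 0.04 (95% interval -0.27 to 0.35) in control and 0.29 (95% interval -0.019 to 0.60, adjusted p = 0.148 by edgeR) in KO mice. With library size as the only scaling, the latter was 0.56 and passed as higher in colon (adjusted p = 0.0304 by edgeR).

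**Figure D2:**
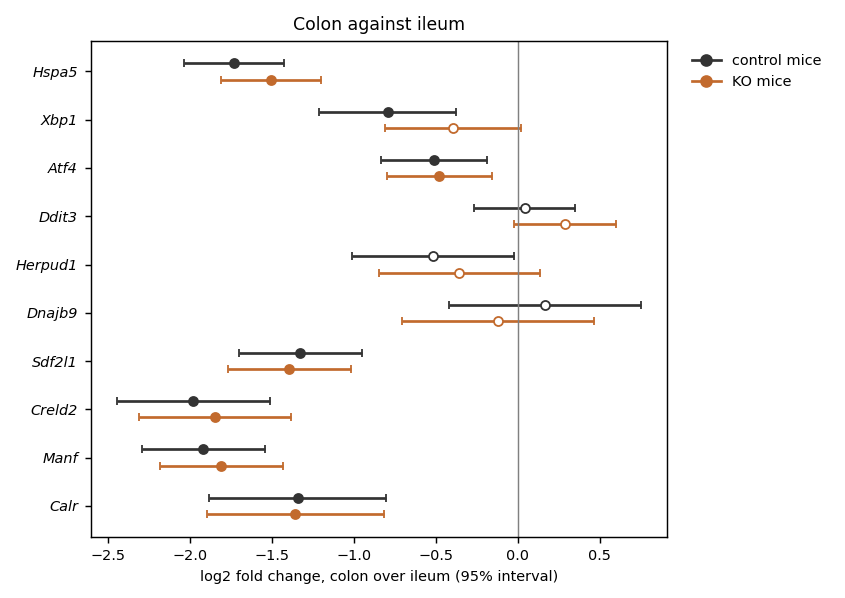
Log2 fold change, colon over ileum, of each of the 10 genes in control and KO mice, with 95% intervals from edgeR; filled points have an adjusted p under 0.1. The intervals of Hspa5, Atf4, Sdf2l1, Creld2, Manf and Calr lie below 0 in both genotypes, and those of Ddit3 and Dnajb9 include 0 in both.

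Groups of 3 libraries that did not overlap between tissues were common in these data. In either direction together they made up 40.7% of all genes in control and 50.4% in KO mice, and the share lower in colon alone was not counted. Among the 10 genes, 7 were non-overlapping and lower in colon in each genotype, and 1, Ddit3, was non-overlapping and higher in colon in KO mice. Exchanging the tissues within genotype over all 12 libraries gave the smallest possible p, 0.005, for Hspa5, Xbp1, Atf4, Sdf2l1, Creld2, Manf and Calr (two-sided exact permutation test, 10 genes tested, not adjusted). That p follows from the lack of overlap of these 7 genes in both genotypes, so it is not separate support. The share of all genes at that p was not counted. The same exact permutation test gave p = 0.025 for Herpud1, 0.085 for Ddit3 and 0.82 for Dnajb9. If both tissues came from the same mice, the libraries exchanged in this exact test are not independent.

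Compared per kilobase of the longest transcript, Calr and Hspa5 were the most abundant of the 10 in all 4 groups. In ileal control libraries Calr was at 243 ± 82.2 and Hspa5 at 231 ± 1.76 CPM per kb (mean ± SD, n = 3), a difference within the spread of Calr. Next came Atf4 at 95.2 ± 10.6, Xbp1 at 93.9 ± 26.5 and Manf at 73.1 ± 15.8 CPM per kb, of which neighbours overlap within 1 SD. Herpud1 at 52.1 ± 16.8, Creld2 at 32.2 ± 9.73, Dnajb9 at 26.9 ± 3.43 and Sdf2l1 at 26.7 ± 3.82 CPM per kb followed, and Ddit3 was lowest at 17.6 ± 0.84 CPM per kb. In colonic control libraries Creld2 at 8.17 ± 0.51 and Sdf2l1 at 10.7 ± 1.03 CPM per kb lay below Ddit3 at 18.2 ± 2.51 CPM per kb. With the union of exons as length, Creld2 was still below Ddit3 in colon, but Sdf2l1 was above it, at 10.65 against 10.29 CPM per kb in colonic control libraries. That length also exchanged Calr with Hspa5 and Dnajb9 with Sdf2l1 in ileal control libraries, Manf with Herpud1 in ileal KO libraries and Xbp1 with Atf4 in colonic KO libraries.

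Several of these genes are textbook targets of ATF6 and XBP1 through the ER stress response element (ERSE), which is CCAAT and CCACG with 9 bases between them. The element was looked for on both strands in the RefSeq promoter of each gene on GRCm38.p6, 250 bases before to 50 after the start, and 9 of the 10 genes had a promoter there. Manf had none. Of 32851 mouse promoters 0.119% hold an ERSE, among them those of Hspa5, Creld2 and Calr. The related ERSE-II, ATTGG and CCACG with 1 base between them, is in 0.0365% of promoters and was found for Herpud1. The TGACGTGG core of the UPR element is in 0.676% of promoters and in 0 of the 9. CCACG alone, which both elements contain, is in 32.8% of promoters and in 7 of the 9. The promoters of Creld2 and Calr are printed because both genes hold an ERSE and were lower in colon. They run 5′ to 3′ on the strand of the gene and end 1 base before the RefSeq start. Capitals mark the ERSE, which in both lies on the opposite strand and so reads as its reverse complement.
Creld2, chr15:88819396-88819645, plus strand: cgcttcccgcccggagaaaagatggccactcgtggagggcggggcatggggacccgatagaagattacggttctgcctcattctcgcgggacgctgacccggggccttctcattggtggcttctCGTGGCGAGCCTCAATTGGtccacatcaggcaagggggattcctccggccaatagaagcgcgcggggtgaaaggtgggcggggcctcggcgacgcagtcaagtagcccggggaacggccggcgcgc
Calr, chr8:84846932-84847181, minus strand: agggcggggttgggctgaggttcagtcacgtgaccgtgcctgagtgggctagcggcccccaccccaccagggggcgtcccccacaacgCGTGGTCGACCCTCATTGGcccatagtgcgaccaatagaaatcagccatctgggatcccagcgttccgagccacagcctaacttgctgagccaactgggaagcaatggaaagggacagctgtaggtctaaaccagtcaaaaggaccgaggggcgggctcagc
The ERSE of Hspa5 is shown in a window of 30 bases on the strand of the gene. It lies 65 to 47 bases before the RefSeq start and inside the first exon of the GENCODE M21 model, which starts at chr2:34771970.
Hspa5, chr2:34772019-34772048, plus strand: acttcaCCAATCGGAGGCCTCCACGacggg

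Promoters were matched to the table by Entrez identifier, and 87 of the 104 genes of the pathway lists had one. Among them 10 tested genes had an ERSE, including Hspa5, Creld2 and Calr. The element itself is printed for each, read from CCAAT to CCACG, with CCAAT and CCACG in capitals and the bases between them in lower case.
Calr, chr8:84847075-84847093, plus strand: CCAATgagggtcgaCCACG
Canx, chr11:50325800-50325818, minus strand: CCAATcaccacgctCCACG
Creld2, chr15:88819520-88819538, minus strand: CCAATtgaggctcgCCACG
Derl3, chr10:75893242-75893260, minus strand: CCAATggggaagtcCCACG
Dnajc3, chr14:118937827-118937845, plus strand: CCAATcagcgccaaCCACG
Ero1lb, chr13:12565682-12565700, minus strand: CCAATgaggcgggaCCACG
Hsp90b1, chr10:86705533-86705551, plus strand: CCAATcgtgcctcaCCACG
Hsp90b1, chr10:86705638-86705656, minus strand: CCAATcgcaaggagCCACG
Hspa5, chr2:34772025-34772043, plus strand: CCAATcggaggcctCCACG
Pdia6, chr12:17266491-17266509, plus strand: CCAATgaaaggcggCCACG
Syvn1, chr19:6046532-6046550, plus strand: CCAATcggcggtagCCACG
Hsp90b1, the HSP90 chaperone of the ER (GRP94), had a pair of elements. The site of Creld2 also lies in the promoter of its divergent neighbour Alg12, and that of Calr in the promoter of 1700122E12Rik. Of these 10 genes 9 were lower in colon in both genotypes, for example Hsp90b1 at -1.39 (SE 0.16, adjusted p = 7.18e-05 by edgeR) and Dnajc3, an inhibitor of PERK, at -0.99 (SE 0.14, adjusted p = 0.000274) in control mice. Ero1lb, an ER oxidase listed by RefSeq as Ero1b, did not pass, at -0.43 (SE 0.30, adjusted p = 0.319 by edgeR) in control and -0.29 (SE 0.30, adjusted p = 0.503) in KO mice. Hsp90b1, Dnajc3 and Ero1lb are named for the element, after their values were seen. Over the whole genome 37 genes had an ERSE and 20 were tested, of which 13 (65.0%) were lower and 2 higher in colon in control mice and 14 (70.0%) were lower and 1 higher in KO mice, beside 19.6% and 20.0% of all genes lower. Without the 2 ileal libraries with few muscle transcripts 19 were tested, of which 11 were lower and 1 higher in each genotype. Of the 10 tested genes with an ERSE outside the pathway lists, 4 were lower and 2 higher in control mice, and 5 were lower and 1 higher in KO mice. Alg12, whose site is that of Creld2, was among the lower genes in both genotypes. The element and the pathway lists both come from knowledge of the UPR, so the 2 are not independent. By genotype over both tissues, 0 of the 20 were called by edgeR, DESeq2 or limma-voom.

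Other genes of the pathway were taken from 8 lists, which with the 10 genes hold 104 genes, 101 of them tested. Apart from the 10, 91 were tested, of which 48 (52.7%) were lower and 5 (5.49%) higher in colon in control mice. In KO mice 45 (49.5%) were lower and 9 (9.89%) higher. Over all 101 genes the counts lower in colon were 55 and 51. Without the 2 ileal libraries with few muscle transcripts they were 55 in each genotype, with 9 and 13 genes higher, and with library size as the only scaling they were 38 and 35, with 11 and 16 genes higher. That scaling moved the median of all genes to 0.24 and 0.29 on the log2 scale, and relative to that median the 101 genes kept a median of -0.53 and -0.50. By list, leaving out the 2 libraries moved the transcription factors lower in KO mice from 3 to 5 and the HSP70 and HSP90 genes higher in KO mice from 1 to 3, and it moved the other counts by 1 at most.

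The counts by list include those of the 10 genes that belong to it. Of 7 genes for sensors and their proteases, 2 were lower in colon in each genotype. Eif2ak3, which encodes PERK, had log2 fold changes of -1.37 (SE 0.12, adjusted p = 9.37e-06 by edgeR) in control and -1.36 in KO mice, and Atf6 had -0.83 (SE 0.13, adjusted p = 0.000612 by edgeR) and -0.86. Ern1, which encodes IRE1-alpha, was at 0.015 (SE 0.18, adjusted p = 0.961 by edgeR) and -0.16. Ern2, its homologue of goblet cells, was at 0.49 (SE 0.33, adjusted p = 0.302 by edgeR) in control and 0.68 in KO mice, and without the 2 ileal libraries with few muscle transcripts it was higher in colon, at 0.93 (adjusted p = 0.00109 by edgeR) and 1.11. Of 11 transcription factors, 3 were lower and 1 higher in colon in control mice, and 3 were lower and 2 higher in KO mice. Creb3l3, an ER-bound factor of liver and intestine, was lower at -2.80 in control and -2.68 in KO mice. Nupr1, a stress-induced chromatin protein, was higher at 3.79 (SE 0.25, adjusted p = 1.14e-06 by edgeR) and 3.91.

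Of 13 genes of the HSP70 and HSP90 system, 7 were lower and 0 higher in control mice, and 7 were lower and 1 higher in KO mice. Hyou1, the nucleotide exchange factor of BiP, was lower at -1.64 (SE 0.30, adjusted p = 0.00177 by edgeR) in control mice. Dnajc10, a J-domain disulfide reductase, was higher at 0.53 (SE 0.15, adjusted p = 0.0197 by edgeR) in KO mice. Paralogs of Sdf2l1, Manf and Creld2 did not pass the threshold, with Sdf2 at 0.22 (SE 0.23), Cdnf at 0.45 (SE 0.52) and Creld1 at -0.40 (SE 0.38) in control mice, all with an adjusted p above 0.1 by edgeR. Creld1 was lower without the 2 ileal libraries with few muscle transcripts, at -0.64 (adjusted p = 0.0605 by edgeR) in control and -1.13 (adjusted p = 0.00321) in KO mice. The difference between each gene and its paralog was not tested, and Calr3 and Calr4 did not pass the filter on low counts.

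Among 6 lectin chaperones tested, 5 were lower and 1 higher in colon in control mice, and 4 were lower and 1 higher in KO mice. Canx, the membrane-bound counterpart of calreticulin, was lower at -1.17 (SE 0.11, adjusted p = 2.1e-05 by edgeR) and -1.03. Uggt2, a folding sensor of glycoproteins, was higher at 1.23 (SE 0.42, adjusted p = 0.0508 by edgeR) and 1.07 (SE 0.42, adjusted p = 0.076). Uggt2 had only 10 to 56 counts per library, and with samples blocked by replicate number it did not pass in KO mice (adjusted p = 0.108 by edgeR). Of 13 disulfide isomerases and oxidases, 7 were lower and 1 higher in control, and 5 lower and 1 higher in KO mice. Pdia6 was lower at -1.22 (SE 0.14, adjusted p = 5.3e-05 by edgeR) and Pdia4 at -1.20 in control mice, and P4hb at -1.01 in KO mice. Agr2, an isomerase needed for mucin folding and also a goblet cell marker here, was higher at 0.83 and 0.87. Of 17 genes of ER-associated degradation, 9 were lower and 2 higher in each genotype. Among them Syvn1, the ubiquitin ligase HRD1, was lower at -1.16 and -1.24, and its partner Sel1l at -0.75 and -0.84. Derl3, also listed here as a plasma cell marker, was lower at -2.43 (SE 0.69, adjusted p = 0.0211 by edgeR) and -1.94, whereas Erlec1, a lectin of this pathway, was higher at 0.44 and 0.38, and Ube2g2, a ubiquitin-conjugating enzyme, at 0.52 and 0.45. Erlec1 did not pass in control mice without the 2 ileal libraries with few muscle transcripts (0.31, adjusted p = 0.112 by edgeR), nor did Ube2g2 in KO mice (0.36, adjusted p = 0.183).

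Of 16 targets of ATF4 and CHOP, 9 were lower and 0 higher in colon in control mice, and 9 were lower and 1 higher in KO mice. Trib3, a pseudokinase induced by CHOP, was lower in colon, at 8.59 to 11.6 CPM in ileum and 0 to 0.512 CPM in colon. Slc3a2, an amino acid transporter subunit, was lower at -2.14 (SE 0.17, adjusted p = 4.67e-06 by edgeR) and -2.03. Psat1, an enzyme of serine synthesis, was lower at -1.67 and -1.48, and the p53-induced Sesn2 was higher in KO mice at 0.77 (adjusted p = 0.0998 by edgeR). Sesn2 was also higher in control mice without the 2 ileal libraries with few muscle transcripts, at 0.71 (adjusted p = 0.0495 by edgeR), and with RLE scaling it did not pass in KO mice (adjusted p = 0.1003). Of 19 genes of ER translocation and vesicle transport, 13 were lower and 0 higher in control mice, and 12 lower and 1 higher in KO mice. The largest falls among those called were in Ssr2, a subunit of the translocon-associated protein complex, at -1.48 and -1.28, and the COPII coat genes Sec24d, at -1.35 and -1.24, and Sec23b, at -1.22 and -1.19. Sec62, a translocation factor, was higher at 0.32 in KO mice by edgeR (adjusted p = 0.0861) and did not pass by DESeq2 (adjusted p = 0.1006).

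**Figure D3:**
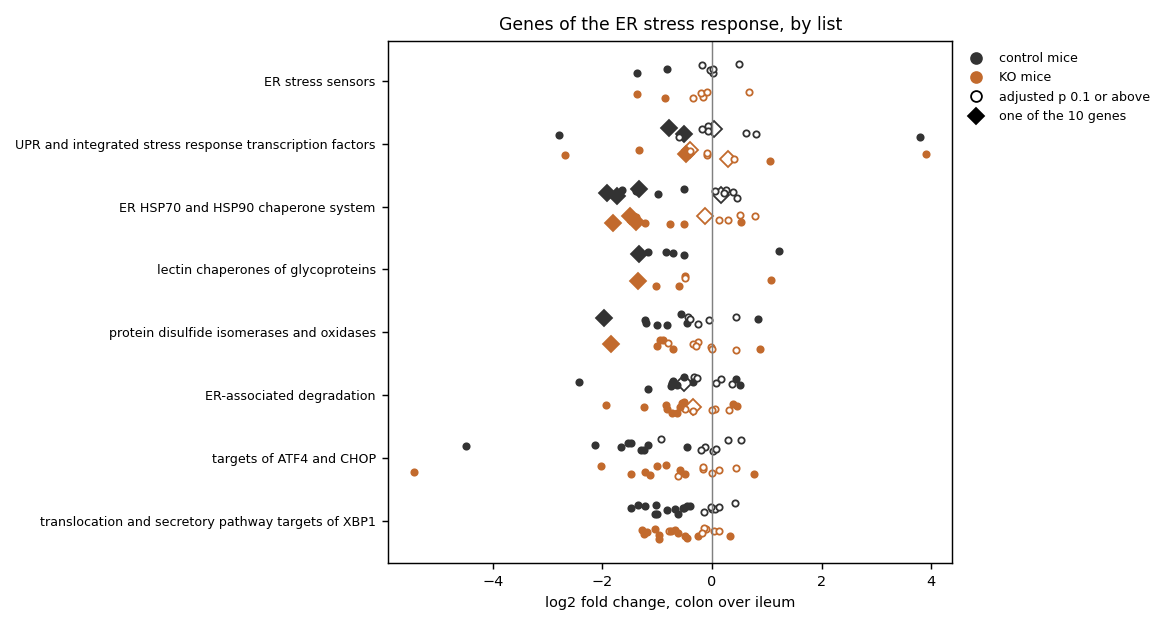
Log2 fold change, colon over ileum, of every tested gene of the 8 pathway lists in control (upper) and KO mice (lower), with the 10 genes as diamonds and open symbols for an adjusted p of 0.1 or above. In every list more genes were called below 0 than above, and Nupr1 lies highest at 3.79 and 3.91.

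Cell type markers also differed between tissues. All 6 epithelial markers were lower in colon in both genotypes, with a summed level of 17990 to 22460 CPM in ileum and 8904 to 10160 CPM in colon. Of 8 plasma cell markers 5 were lower in each genotype, with a sum of 814 to 4077 CPM in ileum and 577 to 1380 CPM in colon, and Jchain was at 91.1 to 811 CPM in ileum and 151 to 319 CPM in colon. Of 6 Paneth cell markers 5 were lower, with a sum of 4720 to 14360 CPM in ileum and 14.3 to 372 CPM in colon, and Lyz1 was at 1839 CPM or more in ileum and 4.51 CPM or less in colon. Of 8 goblet cell markers 5 were lower and 2 higher, with a sum of 14380 to 17470 CPM in ileum and 9403 to 12010 CPM in colon. The 6 T and B cell markers summed to 28.1 to 49.9 CPM in ileum and 6.68 to 14.4 CPM in colon, with 3 lower in control and 4 lower in KO mice. Among defining markers, Defa17 was at 0 in 1 colonic library, and the colonic markers Aqp8 and Hoxa11os were at 0 in 4 and 5 ileal libraries. The 2 enteroendocrine markers were higher in colon, with a sum of 286 to 465 CPM against 55.4 to 177 CPM in ileum, and 0 of 3 smooth muscle markers were called. Of 9 genes of handling and heat stress, 2 were higher and 1 lower in colon in control mice, and 2 were lower in KO mice, with a sum of 527 to 587 CPM in ileum and 375 to 551 CPM in colon. Without the 2 ileal libraries with few muscle transcripts, 7 and 6 of the 8 plasma cell markers were lower in control and KO mice, 5 and 6 of the 6 epithelial markers, and 3 of the 6 T and B cell markers in each, with 1 higher in control mice. The genes of handling and heat stress lower in control mice went from 1 to 3, and the other marker counts moved by 1 at most. The part of these cell types in the tissue difference of the 10 genes was not tested.

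Between genotypes, none of the 10 genes passed the threshold. By edgeR 0 of the 10 were called over both tissues, in ileum, in colon or for the difference between tissues, and 0 had an unadjusted p under 0.05 in any of these comparisons. DESeq2 and limma-voom also called 0 of the 10 in each. The background was the same, with 0.0% of 16558 genes called by edgeR in every genotype comparison. At an unadjusted p under 0.05 there were 641 genes over both tissues, 252 in ileum, 385 in colon and 169 for the difference. DESeq2 called 4, 2, 0 and 1 genes in these comparisons and limma-voom 1, 1, 0 and 0. Over both tissues the log2 fold changes, KO over control, ran from -0.0037 for Ddit3 to 0.23 for Calr with a median of 0.13, and 9 of 10 were above 0, beside a median of 0.0018 over all genes. In ileum they ran from -0.13 for Ddit3 to 0.24 for Calr, with 6 of 10 above 0. In colon they ran from -0.072 for Dnajb9 to 0.33 for Xbp1, with 9 of 10 above 0. The smallest unadjusted p was 0.098, for Hspa5 in colon (edgeR, adjusted p = 1).

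The intervals give the precision of the genotype comparison. Over both tissues the KO level of Hspa5 was 1.10-fold that of controls (95% interval 0.948 to 1.27), that of Atf4 1.001-fold (0.864 to 1.16) and that of Ddit3 0.998-fold (0.858 to 1.16). Xbp1 was at 1.09-fold (0.886 to 1.35), Sdf2l1 at 1.10-fold (0.926 to 1.30), and Manf at 1.01-fold (0.853 to 1.20). The widest intervals were those of Dnajb9, from 0.796 to 1.39-fold, and Calr, from 0.917 to 1.498-fold. Herpud1 was at 1.15-fold (0.91 to 1.44) and Creld2 at 1.17-fold (0.946 to 1.44). A change of 1.5-fold in either direction over both tissues thus lay outside the intervals of all 10 genes. Within 1 tissue the intervals were wider, from 0.714-fold for Xbp1 to 1.74-fold for Dnajb9 in ileum and from 0.634-fold for Dnajb9 to 1.71-fold for Herpud1 in colon.

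**Figure D4:**
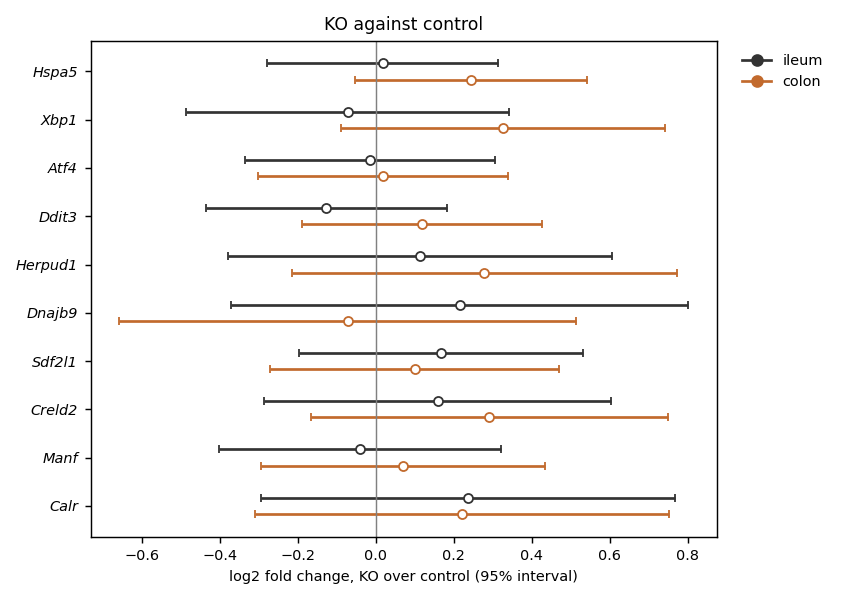
Log2 fold change, KO over control, of each of the 10 genes in ileum and colon, with 95% intervals from edgeR; open points have an adjusted p of 0.1 or above, which holds for all 20 values. Every interval includes 0, and the estimates lie between -0.13 and 0.33.

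In ileum the KO and control libraries overlapped for all 10 genes, where 3.7% of all genes did not overlap. In colon they did not overlap for Xbp1 and Creld2, both higher in KO libraries, where 12.8% of all genes did not overlap in either direction together. Xbp1 was at 133 to 152 CPM in colonic KO and 104 to 126 CPM in colonic control libraries, and Creld2 at 12.5 to 15.9 and 10.4 to 11.7 CPM. The log2 fold change was 0.33 (SE 0.19) for Xbp1 and 0.29 (SE 0.21) for Creld2 (exact permutation test p = 0.1 for each, the smallest that 3 libraries against 3 allow). The 8 plasma cell markers were also without overlap in summed level, at 727 to 1380 CPM in colonic KO and 577 to 701 CPM in colonic control libraries. Of these markers 0 of 8 were called by edgeR. Taken singly, Jchain, Igha, Mzb1, Derl3 and Prdm1 overlapped between the genotypes in colon, and Igkc, Sdc1 and Tnfrsf17 did not. Sdc1, a large part of the sum, was at 280.6 to 333.0 CPM in colonic KO and 259.5 to 269.8 CPM in colonic control libraries. Without Sdc1 the summed level of the other markers overlapped between the genotypes in colon. Sdc1 was not lower in colon than in ileum, unlike most of these markers. The part of plasma cells in the values of Xbp1 and Creld2 was not tested. The genotype effect in colon minus that in ileum ran from -0.29 for Dnajb9 to 0.40 for Xbp1, with 0 called (edgeR). Without the 2 ileal libraries with few muscle transcripts, the ileal values of Herpud1, Dnajb9 and Calr were 0.32 (SE 0.20), 0.40 (SE 0.20) and 0.31 (SE 0.23), each with an adjusted p of 0.952 by edgeR.

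The 91 other pathway genes also had 0 called by edgeR in each genotype comparison, and DESeq2 and limma-voom called 0 of the pathway genes over both tissues. At an unadjusted p under 0.05 there were 4 over both tissues, 0 in ileum, 6 in colon and 2 for the difference between tissues. Over all 101 genes the median log2 fold change over both tissues was 0.084, with 77 of 101 above 0, beside a median of 0.0018 over all genes. The 101 genes were measured in the same 12 libraries, so their signs are not independent, and the shift of the set was not tested. The lists ranged from a median of 0.043 for transcription factors to 0.20 for lectin chaperones.

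Within groups the 10 genes did not vary as a single block. Over the 12 libraries, Pearson's r between the deviations of log2 CPM from the group means was 0.82 for Xbp1 and Manf, 0.82 for Atf4 and Dnajb9, 0.77 for Xbp1 and Creld2 and 0.77 for Sdf2l1 and Calr. It was -0.60 for Sdf2l1 and Dnajb9, -0.45 for Dnajb9 and Calr and -0.43 for Xbp1 and Herpud1. Of 45 pairs 32 were positive, with a median of 0.24. These values are descriptions over libraries that share depth and cell makeup. Ileal control replicate 2, with plasma cell markers at 3075 CPM, had the highest Xbp1, Atf4, Dnajb9, Sdf2l1, Creld2 and Manf of its group. Ileal KO replicate 3, with plasma cell markers at 4077 CPM, had the highest Hspa5, Xbp1, Atf4, Ddit3, Creld2 and Manf of its group. The 2 ileal libraries with few muscle transcripts had the highest Calr and Herpud1 and the lowest Xbp1, Atf4, Dnajb9 and Manf of their groups, and their Paneth cell markers, at 14360 and 11520 CPM, were the highest of all libraries. Their plasma cell markers, at 814 and 862 CPM, were the lowest of the ileal libraries. Their B cell marker Ms4a1 was at 9.60 and 11.9 CPM against 0.611 to 0.758 CPM in the other ileal libraries, and their enteroendocrine markers summed to 177 and 146 CPM against 55.4 to 69.4 CPM. The part of these cell types was not tested. Without those 2 libraries r was 0.97 for Creld2 and Calr, 0.94 for Sdf2l1 and Calr, 0.93 for Xbp1 and Creld2 and 0.92 for Sdf2l1 and Creld2, while Dnajb9 stayed between -0.27 and 0.63 with every other gene. Each ileal group then has 2 libraries, whose deviations are equal and opposite, so these r rest on few independent values.

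**Figure D5:**
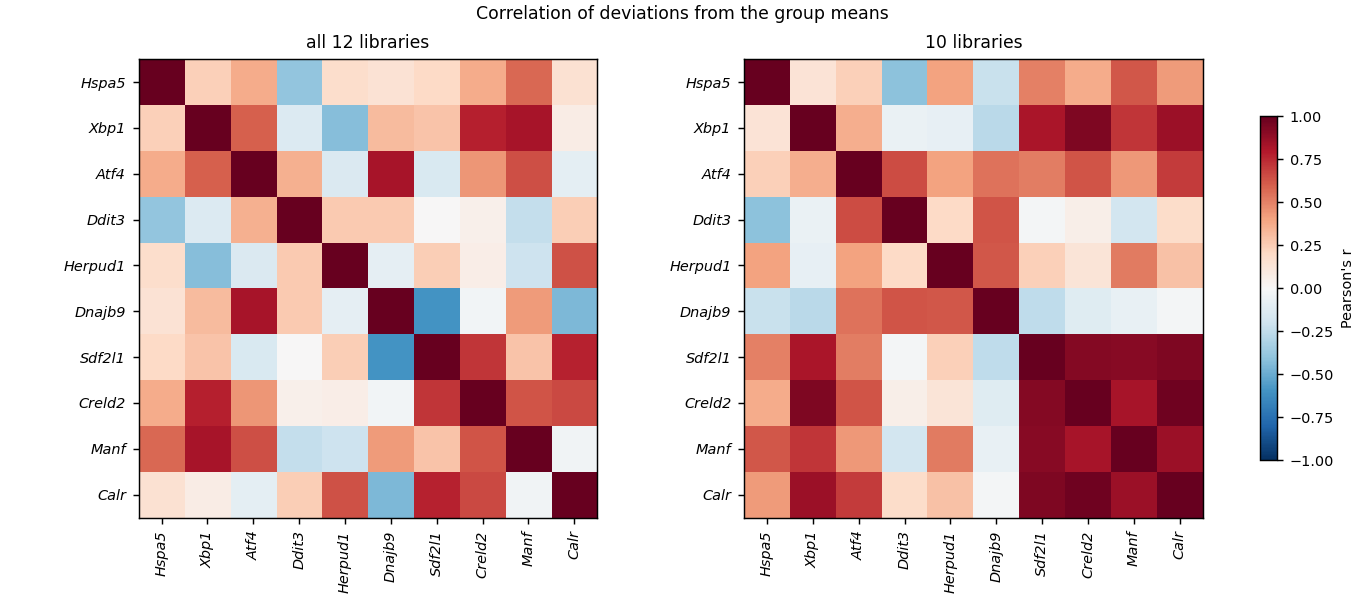
Pearson's r between each pair of the 10 genes, from deviations of log2 CPM from the group means, over all 12 libraries (left) and over the 10 libraries without the 2 ileal libraries with few muscle transcripts (right). On the right Xbp1, Sdf2l1, Creld2, Manf and Calr form a block with r from 0.71 to 0.97, where each ileal group has 2 libraries with equal and opposite deviations.

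Outside the 10, the genes whose deviations were most like those of Hspa5 over 12 libraries were Cd6 (r = 0.93), Gm13509 (r = 0.92), Hoxd3 (r = 0.92), Gm42907 (r = 0.91) and Tbc1d10c (r = 0.90), and over the 10 libraries their r was 0.90 to 0.94. Those most like Atf4 were Jph3 (r = 0.98), Hif1a (r = 0.97), Rragc (r = 0.96), Ccdc71l (r = 0.96) and Prkar1a (r = 0.96), with r of 0.91 to 0.97 over the 10 libraries. They are the top of 16558 genes ranked by r, and the values are descriptions.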

How the data were processed

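RNA-seq libraries were made from total RNA of ileal and colonic mucosa with oligo-dT priming and sequenced as 150-bp pairs. STAR and the mm10 genome are named in the submitters' processing notes, and the study's reporting summary also names UMI-tools for deduplication and FeatureCounts for assigning reads to genes. Which step gave values that are not whole is not stated there. The deposited table, made by the authors, holds expected counts per gene, of which 93.7% were whole numbers, and has no columns of comparisons. They were rounded here, and 92 spike-in rows with 0 counts were left out.

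Genes were filtered with filterByExpr over the 4 groups, scaled by TMM and tested with the quasi-likelihood F-test of edgeR 4.0.16 in R 4.3.3, which was tested on simulated data. The genotype effect over both tissues came from an additive model of tissue and genotype, and the other contrasts from a model of 4 groups. P-values were adjusted by Benjamini-Hochberg over 16558 genes with a threshold of 0.1. Exact permutation tests used log2(CPM + 0.5). DESeq2 1.42.0 and limma-voom (limma 3.58.1), other scaling and filters, and left-out libraries were alternatives. P-values of edgeR rest on the spread between libraries within groups, with an estimate shared by the 4 groups. In the additive model that spread also includes any difference in genotype effect between tissues. The 10 genes, the pathway and marker lists and the motifs were chosen with earlier results of these data known. Genes named from a list are the 10 genes, their paralogs, 4 sensors and up to 3 with the largest positive and 3 with the largest negative log2 fold change among those past the threshold. Promoter sequences are from RefSeq on GRCm38.p6, matched by Entrez identifier through GENCODE M21, and most table identifiers (51464 of 53715) had the same version in GENCODE M21.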

Additional observations from a re-analysis of the deposited data

How the results depend on the processing

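Values are log2 fold changes, and the cause of each change was not tested. Replicate numbers are shared between groups. The deviations of samples with the same number had correlations of -0.69 to 0.40 over 12 pairs, and both ends were pairs of ileal control and ileal KO. Pairs of ileum and colon within a genotype, which alone could share a mouse, had correlations of -0.08 to 0.25. Deviations from means of 3 libraries cannot decide whether a mouse was shared, so the main fit did not pair samples by number. With the replicate block, 7 and 6 of the 10 genes were lower in colon in control and KO mice, as without it, and 51 pathway genes in each genotype. Counts of pathway genes and of genes with an ERSE under other settings were added after seeing the data. With library size as the only scaling, 66.4% of tissue calls in control and 70.9% in KO mice were higher in colon, against 45.3% and 46.1% with TMM. Genotype calls among all genes, 0 with edgeR, were 4 with DESeq2, 1 with limma-voom, 5 without the 2 ileal libraries with few muscle transcripts and 0 to 1 with single libraries left out over both tissues. In ileum they were 2, 1, 3 and 0 to 1. In colon 1 was called with the 6 libraries alone, and for the difference between tissues DESeq2 called 1.

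No genotype value of the 10 genes passed the threshold under these settings, so the following changes of sign are within error. Over both tissues Atf4 was -0.0027 with limma-voom and -0.0022 with the replicate block. Ddit3 was 0.070 with library size only, 0.012 without the filter and 0.034 without the 2 ileal libraries. In ileum library size only gave 0.033 for Atf4 and 0.019 for Manf, and leaving out the 2 libraries gave 0.049 for Atf4. In colon Dnajb9 was 0.027 with library size only. For the difference between tissues, Calr was 0.062 with library size only and 0.015 without the filter, and without the 2 libraries Atf4 was -0.015, Herpud1 -0.033 and Sdf2l1 0.11. In the tissue comparison of KO mice Dnajb9 was 0.17 with library size only.

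Leaving out single libraries, values over both tissues ran from -0.046 to 0.060 for Atf4, -0.047 to 0.036 for Ddit3, -0.060 to 0.18 for Dnajb9 and -0.028 to 0.10 for Manf. In ileum they ran from -0.023 to 0.061 for Hspa5, -0.19 to 0.19 for Xbp1, -0.13 to 0.11 for Atf4, -0.048 to 0.41 for Herpud1, -0.045 to 0.50 for Dnajb9, -0.030 to 0.41 for Creld2, -0.16 to 0.15 for Manf and -0.0035 to 0.48 for Calr. In colon they ran from -0.23 to 0.11 for Dnajb9 and -0.028 to 0.11 for Atf4. For the difference they ran from -0.24 to 0.23 for Calr, -0.092 to 0.14 for Atf4, -0.12 to 0.33 for Herpud1, -0.20 to 0.077 for Sdf2l1, -0.12 to 0.32 for Creld2 and -0.076 to 0.25 for Manf. In control mice the tissue values ran from -0.099 to 0.10 for Ddit3 and -0.018 to 0.27 for Dnajb9, and in KO mice from -0.41 to 0.14 for Dnajb9.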
